A study of Caenorhabditis elegans with 8 samples.

Results

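The genes described here are 150 of the 1937 genes in a table of small RNA counts from whole young adult Caenorhabditis elegans. Apart from genes left out by name, they had the most small RNA counts among genes whose counts were close to wild-type in an rde-12 mutant. They were chosen from the measured values. A gene had to have a ratio of mean CPM (the counts of a library scaled so that the table sums to 1000000), rde-12(hj41) over N2, between 0.87 and 1.15. The 6 genes of clone AC8 and 14 single genes were left out by name, and the 150 remaining genes with the highest N2 mean were kept. In all, 1250 genes were inside the window and 1232 of them could be chosen. The similarity of the genotypes and the high level are therefore properties of the choice and not findings.

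One group of animals, rde-12(hj41), carries the hj41 mutation in rde-12, which encodes a DEAD-box helicase needed for strong RNA interference, and the other, N2, is the standard wild-type strain. Animals of both groups hatched in synchrony, ate OP50 bacteria and were collected after 50 h at 20 °C, and each group gave 2 libraries that the labels call biological samples. The table held 5563151 and 4354715 counts in the rde-12(hj41) libraries, against 4270098 and 4382256 in the N2 libraries. RNAs of 20 to 26 nt were cut from gels. The labels also list 4 libraries from animals fed a sel-1 trigger, whose gene counts were not analysed here, and counts for rde-12 as a gene were not analysed here either, so the mutation was not checked in the counts. The table is a selection of genes made by its authors, so the totals are not whole-library depths. For the strand counted, the genome build and reads with several matches, the choices are not given in the sources used. In RNA from whole animals, fewer cells with a small RNA and less of it per cell cannot be told apart.

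In nematodes, most endogenous small RNAs that match genes are made by RNA-dependent RNA polymerases, which use a messenger RNA as template and lay down short antisense copies. Worm-specific Argonaute proteins bind these secondary small RNAs and silence or license the gene, in the cytoplasm or at the chromatin, and a large part of the traffic takes place in the germline and its perinuclear granules. RDE-12 takes part in making secondary small RNAs after a trigger has been recognised. Genes with many small RNAs include pseudogenes, members of expanded nematode families and genes of the silencing machinery itself.

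The 150 genes held 47.03% and 46.52% of all counts in the rde-12(hj41) libraries, a mean of 46.8% ± 0.359, and 45.1% and 44.7% in the N2 libraries, a mean of 44.9% ± 0.308 (SD, n = 2 each). Both rde-12(hj41) libraries lay above both N2 libraries. The 10 most abundant genes alone held 11.1% ± 0.0358 in rde-12(hj41) and 10.8% ± 0.169 in N2 (SD, n = 2 each). Mean levels covered 1016.6 to 12973 CPM in rde-12(hj41), with a median of 2152 CPM, and 1010.8 to 12483 CPM in N2, with a median of 2119 CPM. In N2, 8 genes exceeded 10000 CPM, 21 exceeded 5000 CPM, and the first gene was 12.3-fold above the last. Counts per gene and library were between 4290 and 73893. The 20 most abundant genes were the same 20 in both genotypes, and the rank correlation of the means was 0.99 over the 150 genes (Spearman), a description of genes whose ratio the choice had fixed.

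F37H8.2, annotated as a pseudogene, was the most abundant, with 13283 and 12662 CPM in rde-12(hj41) libraries and 12422 and 12544 CPM in N2 libraries. Y71A12B.10, a protein-coding gene with no name in the tables used, had 11969 and 11751 CPM in rde-12(hj41) and 11641 and 11444 CPM in N2. In both, every rde-12(hj41) library was above every N2 library, by a margin smaller than the gap between the rde-12(hj41) libraries. The same order of libraries held in 35.5% of the table. Y62F5A.9, also protein coding, had 10989.6 and 11970.2 CPM in rde-12(hj41), one below and one above the N2 values of 11465 and 11236 CPM. T01A4.3 had 11582 and 11583 CPM in rde-12(hj41), above 11380.1 and 11078 CPM in N2.

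The fifth gene was bath-20, of the BTB and MATH family, whose members can act as substrate adaptors of cullin ubiquitin ligases. It had 11653 and 11438 CPM in rde-12(hj41) and 11349 and 10974 CPM in N2. The gene fkb-8, which encodes an FK506-binding protein of the peptidyl-prolyl isomerase type, had 10657 and 10699 CPM in rde-12(hj41), between the 10796 and 10401 CPM of N2. For frm-1, a gene for a FERM-domain protein, the values were 10979.7 and 10532 CPM in rde-12(hj41) and 10319 and 10134 CPM in N2. Of these 3 genes, only fkb-8 had genotypes that overlapped. Separation was common, with both rde-12(hj41) libraries above both N2 libraries in 35.5% of the table and below them in 27.1%.

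The pseudogene Y54G2A.21 had 10193 and 10171 CPM in rde-12(hj41), inside the N2 values of 10288 and 10006 CPM. F15D4.5 stood furthest apart among the first 10, with 11068 and 10703 CPM in rde-12(hj41) and 9952 and 9602 CPM in N2, a log2 change of 0.13 ± 0.064 (SE, edgeR with TMM scaling). C04G2.10 had 9298 and 9656 CPM in rde-12(hj41) and 9652 and 9455 CPM in N2, which overlap. Genes ranked 11 to 20 had N2 means between 5665 CPM (zfp-1) and 7798 CPM (B0303.7). They include nhr-88, a nuclear receptor gene, with 8065 and 8165 CPM in rde-12(hj41) and 7687 and 7469.7 CPM in N2, and faah-5, which encodes an amide hydrolase-like enzyme, with 6389.9 and 6129 CPM in rde-12(hj41) and 6042 and 6095 CPM in N2. Of the 20, 2 were lower in both rde-12(hj41) libraries than in both N2 libraries. That order held in 23 of the 150 members and 27.1% of the table. W04A8.6 had 6060.2 and 6062 CPM in rde-12(hj41) and 6486 and 6233 CPM in N2, and zfp-1, a zinc-finger gene related to the chromatin protein AF10, had 5555 and 5529 CPM in rde-12(hj41) and 5754 and 5577 CPM in N2.

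**Figure D1:**
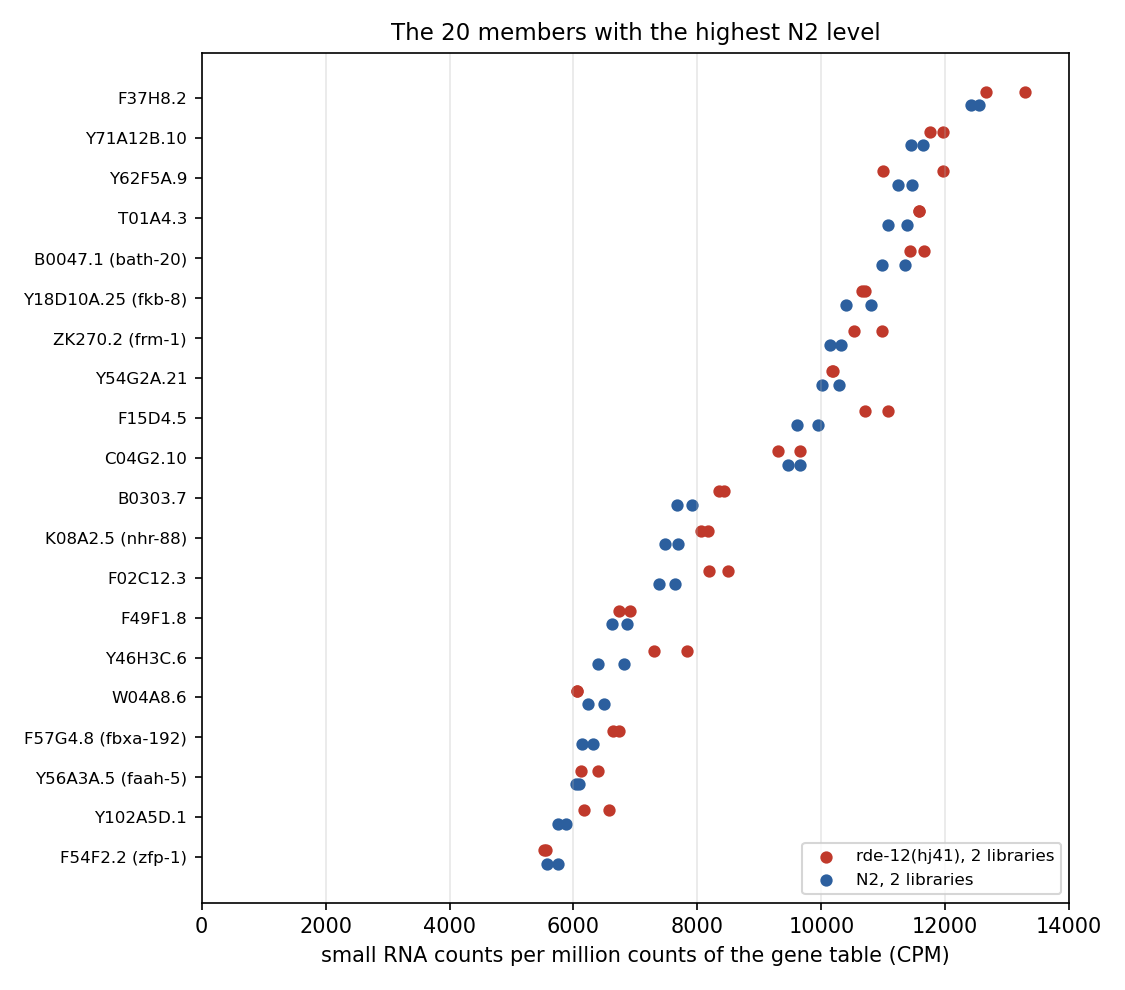
Small RNA level, in CPM, of the 20 genes with the highest N2 level. Each point is 1 library, with rde-12(hj41) above N2 in each row. F37H8.2 leads at 13283 and 12662 CPM in rde-12(hj41) and 12422 and 12544 CPM in N2, and the 2 genotypes lie close together in every row.

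Divided by annotated exon length, the order was another. Exon lengths came from the WBcel235 annotation, matched by gene name for 139 of the 150 genes, and had a median of 1371 bases against 1403.5 over the whole table. Levels had a median of 1605 CPM per 1000 bases in rde-12(hj41) and 1543 in N2. Y62F5A.9 was the densest, with 14643 CPM per 1000 bases in rde-12(hj41) and 14478 in N2. It was followed by F02C12.3 with 11549.6 in rde-12(hj41) and 10396 in N2, by the non-coding RNA gene Y77E11A.3 with 10575 in rde-12(hj41) and 10328 in N2, and by nssp-37 with 9959 in rde-12(hj41) and 9532 in N2. The sparsest was anc-1, which encodes a giant protein that anchors nuclei, with 104 CPM per 1000 bases in rde-12(hj41) and 102 in N2 over 25894 bases of exon. In N2 the densest and the sparsest gene differed 141.5-fold, more than the 12.3-fold range of levels not divided by length. The polyketide synthase gene pks-1, with 23302 bases of exon, had 3836 and 3824 CPM in rde-12(hj41) and 3504 and 3356 CPM in N2, yet per 1000 bases only 164 CPM in rde-12(hj41) and 147 CPM in N2. Y38F2AR.12, also among the 5 sparsest, had 275 CPM per 1000 bases in rde-12(hj41) and 280.0 in N2.

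Across the 150 genes the CPM ratio of rde-12(hj41) over N2 ran between 0.897 and 1.150 with a median of 1.043, and it was above 1 in 113 genes. On the log2 scale of the edgeR fit, whose TMM scaling differs slightly from the table totals, changes lay between -0.19 and 0.18 and were above 0 in 103 genes. Their median was 0.036, against -0.02 over all 1931 genes tested and 0.18 over the 74 other genes at or above the N2 level of the last member. The 95% interval of a gene's log2 change reached a median of 0.124 to either side, between 0.116 and 0.184, so differences of about this size could not be told from 0. Equal levels in the genotypes are not shown by these intervals.

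The edgeR quasi-likelihood test called 1 of the 150 genes lower in rde-12(hj41) and 9 higher at an adjusted p under 0.05. Over all genes tested, 13.9% were called lower and 13.8% higher. Both rde-12(hj41) libraries were below both N2 libraries in 23 genes and above them in 87, where the same held for 27.1% and 35.5% of the table, and the libraries overlapped in 40 genes. Nothing can be read from these counts, because the window was set on the same contrast. The split also depended on the scaling. When scaled to library totals, 3 of the 150 genes were called lower and 43 higher (221 and 333 over all genes), and with upper-quartile factors 37 were called higher (202 lower and 370 higher over all genes). DESeq2 called 1 of the 150 lower and 16 higher (157 and 207 over all genes).

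The gene called lower was hil-8, of the linker histone H1-like family, with 2478 and 2549 CPM in rde-12(hj41) and 2834 and 2718 CPM in N2 (log2 change -0.17 ± 0.057). Among those called higher, ads-1, an enzyme gene of ether lipid synthesis, had 1434 and 1444 CPM in rde-12(hj41) and 1222 and 1284 CPM in N2. The gene rpi-2 had 1713 and 1642 CPM in rde-12(hj41) and 1484 and 1452 CPM in N2. The other 7 called higher were klp-10, enu-3.1, F46F2.4, K09E3.1, F15D4.6, Y110A7A.21 and ZK1055.7. Without rde-12(hj41) replicate 1, and also without N2 replicate 1, 0 of the 10 calls held, without N2 replicate 2 only 1 did, and without rde-12(hj41) replicate 2 there were 9.

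**Figure D2:**
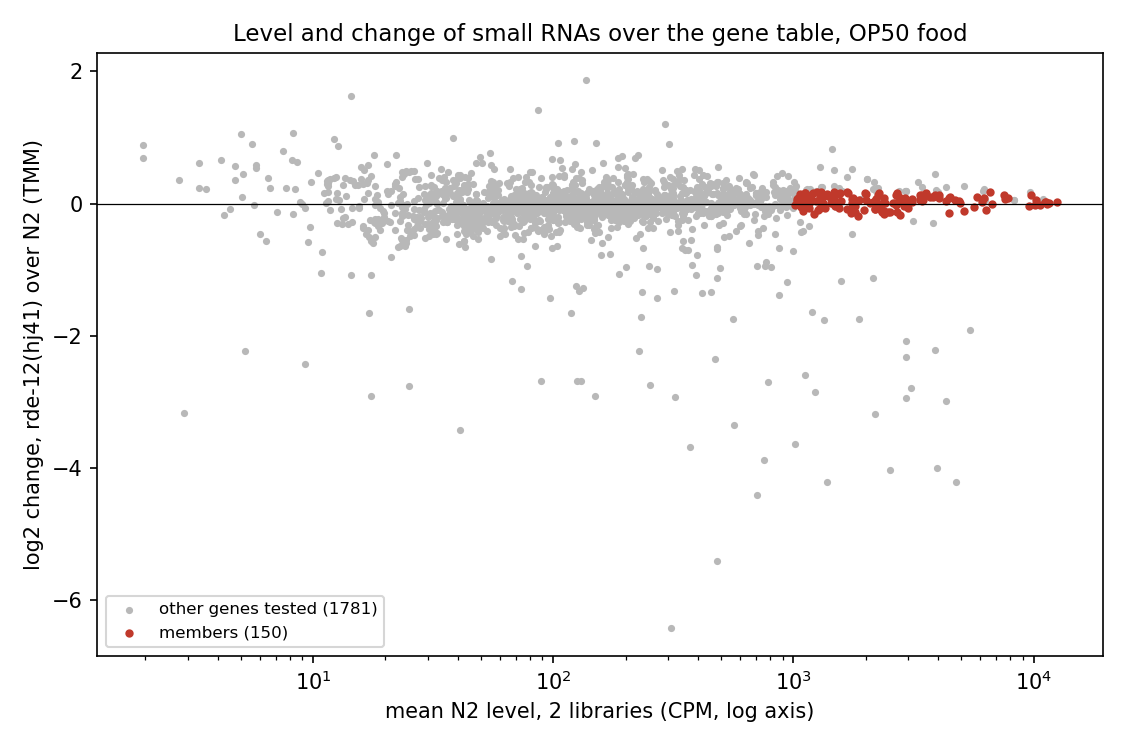
Log2 change of small RNAs, rde-12(hj41) over N2 (TMM scaling), against the mean N2 level in CPM on a log axis, 1 point per gene tested. The 150 members lie between -0.19 and 0.18 at N2 means of 1010.8 CPM or more, and the 1781 other genes reach further up and down.

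At the lower edge of the window, the members with the smallest ratios were C06B8.7 (0.897), hil-8 (0.905) and trpp-10 (0.908), and the nearest genes outside at this level were B0391.10 (0.846), F39C12.1 (0.841) and Y20F4.4 (0.832). At the upper edge Y46H3C.6 (1.145), ads-1 (1.149) and klp-10 (1.150) were inside, and Y67D8C.6 (1.153), ZC247.1 (1.154) and F07B7.1 (1.155) outside. The last genes by level were gpx-8, K08D10.1 and Y20F4.8, at N2 means of 1038.5, 1035.3 and 1010.8 CPM, and the next were pmk-3, ZK892.6 and T04D1.2, at 1005.5, 1005.5 and 999.6 CPM. Of the 224 genes at or above 1010.8 CPM in N2, 150 were members, 27 lay below the window, 38 above it, and 9 were inside it but left out by name.

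The spread between replicates was not part of the choice, which used only the mean of each pair. For a typical member the larger library exceeded the smaller by a factor of 1.027 in rde-12(hj41) and 1.029 in N2 (medians over the 150 genes), against 1.030 in rde-12(hj41) and 1.022 in N2 over the 74 other genes of this level. C06B8.7 had the widest pair, with 1431 and 1885 CPM in rde-12(hj41), a factor of 1.32, and 1752 and 1946 CPM in N2, so that the genotypes overlapped. Its log2 change was -0.37 without rde-12(hj41) replicate 2 and -0.02 without rde-12(hj41) replicate 1. In N2 the widest pair was trpp-10, a gene for a subunit of the TRAPP vesicle-tethering complex, with 1084 and 1137 CPM in rde-12(hj41) and 1332 and 1114 CPM in N2, a factor of 1.20. Its log2 change was -0.29 without N2 replicate 2 and -0.01 without N2 replicate 1, so that 1 library placed each of these genes at the lower edge. M01E5.2 also had a wide pair, with 4478 and 5212 CPM in rde-12(hj41) and 5357 and 4917 CPM in N2, which overlap.

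Of 75 names on a list of small RNA pathway genes, 15 were in the table. Only 1 of the 15 was a member, where 150 of all 1937 genes of the table were. The member was ppw-1, which encodes an Argonaute of germline RNA interference. It had 2231 and 2212 CPM in rde-12(hj41) and 2156 and 2149.6 CPM in N2, with both rde-12(hj41) libraries above both N2 libraries and a log2 change of 0.02 ± 0.056. The same order of libraries held in 35.5% of the table. Over the list, edgeR called 1 gene lower, alg-4, an Argonaute gene of sperm development, at 55.6 CPM in rde-12(hj41) and 68.7 CPM in N2 (log2 change -0.33, adjusted p = 0.0282). Of all genes tested, edgeR called 13.9% lower and 13.8% higher. DESeq2 called 0 of the 15, against 157 lower and 207 higher over all genes. At an unadjusted p under 0.05 edgeR again had alg-4 alone. Others of the list had lower levels than ppw-1, such as wago-2 with 750.2 CPM in rde-12(hj41) and 728.5 CPM in N2.

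Outside this list, parn-1, whose product trims the 3′ ends of piRNAs, had 1816 and 1739 CPM in rde-12(hj41) and 1829 and 1762 CPM in N2, which overlap. The gene sosi-1 had 2209.5 and 2124 CPM in rde-12(hj41), below 2451 and 2292 CPM in N2 (log2 change -0.16 ± 0.062). It lies in the annotation on the strand opposite to eri-6, a helicase gene of an endogenous small RNA pathway, and their exons overlap, so that counts without strand could not be told apart. For eri-6 the levels were 252 and 239 CPM in rde-12(hj41) and 250.3 and 237 CPM in N2. Both genes were picked out after their values were seen. Of 59 germ granule and germline names, 8 were in the table and none was in the set, 4 of them having been left out by name. Both edgeR and DESeq2 called 0 of these 8, with 1 lower and 1 higher at an unadjusted p under 0.05 in edgeR. Of all genes tested, edgeR called 13.9% lower and 13.8% higher.

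Chromatin genes contributed 4 members out of 18 tested. The SET-domain genes set-9 and set-26, which encode a closely similar pair of proteins, moved together across libraries. The values for set-9 were 3569.7 and 3544 CPM in rde-12(hj41) and 3199 and 3641 CPM in N2, and those for set-26 were 2946 and 2935 CPM in rde-12(hj41) and 2636 and 3011 CPM in N2. In both genes N2 replicate 1 was the lowest library and N2 replicate 2 the highest, and how reads that fit both were assigned is not given, so the pair may share counts. The linker histone H1-like gene hil-3 had 1342 and 1284 CPM in rde-12(hj41) and 1172 and 1193 CPM in N2, opposite in direction to hil-8 above. In the whole list edgeR called hil-8 lower and 6 genes higher, where 13.9% of all genes tested were called lower and 13.8% higher. DESeq2 called 1 lower and 4 higher, against 157 lower and 207 higher over all genes. The list median was 0.07, against -0.02 for all genes tested. The 6 that edgeR called higher were jmjd-3.1, jmjd-3.2, jmjd-3.3, hpl-1, cec-8 and the linker histone gene his-24, which averaged 6245 CPM in rde-12(hj41) and 5111 CPM in N2 (log2 change 0.26, adjusted p = 0.00373).

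Of the listed families, F-box genes gave the highest number of members, though not the highest share of their genes. F-box proteins bring substrates to ubiquitin ligases, and their family is much expanded in nematodes. Of 54 F-box genes tested, 7 were members and together held 2.002% of the counts in rde-12(hj41) and 1.895% in N2. Their log2 changes lay between -0.12 and 0.15. The most abundant, fbxa-192, had 6632 and 6732 CPM in rde-12(hj41) and 6309.7 and 6132 CPM in N2, and fbxb-14 had 3552 and 3583 CPM in rde-12(hj41) and 3311 and 3402 CPM in N2. In both, the genotypes did not overlap. By contrast fbxa-67 was lower in rde-12(hj41), at 2199 and 2179 CPM, than in N2, at 2400.4 and 2290.4 CPM, and fbxb-85 overlapped between genotypes, at 1454 and 1542 CPM in rde-12(hj41) and 1567 and 1512 CPM in N2. The other members were fbxa-218, fbxa-120 and fbxb-97, each higher in both rde-12(hj41) libraries, as in 87 of the 150 members and 35.5% of the table. Only 1 other F-box gene reached the level of the members. It was fbxa-149, with 2766 and 2782 CPM in rde-12(hj41) and 2217 and 2116 CPM in N2, above the window. Among the 46 F-box genes of lower level, edgeR called 11 lower and 7 higher, against 13.9% lower and 13.8% higher over all genes tested.

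BTB and MATH genes gave 3 members among 18 tested. Over the list edgeR called 2 lower and 1 higher, none of them members, where it called 13.9% of all genes lower and 13.8% higher. DESeq2 called 1 lower and 0 higher, against 157 lower and 207 higher over all genes. Beside bath-20 the members were math-1, with 1359 and 1328 CPM in rde-12(hj41) and 1249 and 1319 CPM in N2, and bath-23, annotated as a pseudogene, with 1471 and 1491 CPM in rde-12(hj41) and 1375 and 1312 CPM in N2. In all 3 genes every rde-12(hj41) library was above every N2 library, as in 87 of the 150 members and 35.5% of the table. The 2 other genes of the family at this level, bath-45 and bath-13, were left out by name.

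Of 18 nuclear receptor genes tested, which encode transcription factors of a family expanded in nematodes, 3 were members. Beside nhr-88, nhr-229 had 3209.9 and 3249 CPM in rde-12(hj41) and 3204 and 3050.5 CPM in N2, and nhr-15 had 2508 and 2512 CPM in rde-12(hj41) and 2265 and 2224 CPM in N2. All 3 were higher in both rde-12(hj41) libraries, by log2 changes of 0.07 for nhr-88, 0.02 for nhr-229 and 0.14 for nhr-15. This order was shared by 87 of the 150 members and 35.5% of the table. Over the list the median was 0.10. There edgeR called 3 genes higher and 0 lower, with 6 higher and 1 lower at an unadjusted p under 0.05. The 3 calls of 18 are a share near the 13.8% that edgeR called higher over all genes tested. DESeq2 called 2 higher and 0 lower, against 207 higher and 157 lower over all genes. The chemoreceptor gene srh-1 had 2135 and 2066 CPM in rde-12(hj41) and 2229 and 2157 CPM in N2. The ubiquitin-conjugating enzyme gene ubc-19 had 1284 and 1233 CPM in rde-12(hj41) and 1104 and 1121 CPM in N2.

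Families not on a list were noticed after the values were seen. All 6 enu-3 genes of the table, a family named for a gene of axon outgrowth, were members, and together they held 2.20% of the counts in rde-12(hj41) and 2.01% in N2. The most abundant, enu-3.3, had 4927 and 4912 CPM in rde-12(hj41) and 4444 and 4549.9 CPM in N2. The least abundant, enu-3.1, had 2563 and 2588 CPM in rde-12(hj41) and 2206 and 2329 CPM in N2. Each of the 6 was higher in both rde-12(hj41) libraries than in either N2 library, with log2 changes between 0.09 and 0.16, an order shared by 87 of the 150 members and 35.5% of the table. Annotation lists enu-3.4 as a pseudogene. Their sequences were not compared, and how reads that fit several copies were assigned is not given. The 6 may therefore not be 6 separate measurements.

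The 3 caspase-related genes of the table were members too and did not move as a group. For csp-2 the values were 1607 and 1593 CPM in rde-12(hj41) and 1731 and 1726 CPM in N2, lower in both rde-12(hj41) libraries. For csp-1 they were 1272 and 1304 CPM in rde-12(hj41) and 1285 and 1187 CPM in N2, and for csp-3 1045 and 1065 CPM in rde-12(hj41) and 1079.8 and 1064 CPM in N2, both overlapping. The order of libraries seen in csp-2 held in 27.1% of the table. DESeq2 and edgeR each called 0 of the 3, and edgeR had csp-2 alone at an unadjusted p under 0.05. Of all genes tested, edgeR called 13.9% lower and 13.8% higher.

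**Figure D3:**
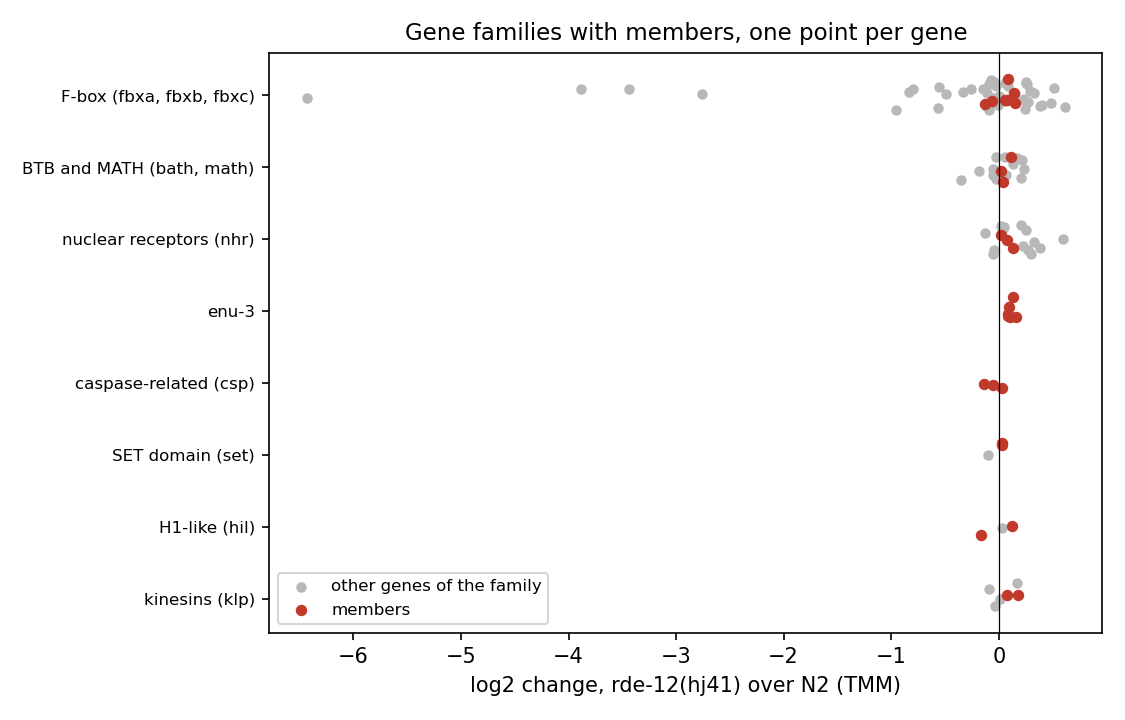
Log2 change, rde-12(hj41) over N2 (TMM scaling), of each tested gene in 8 gene families that hold members, with members in red and other genes of the family in grey. The 7 F-box members lie between -0.12 and 0.15, while other F-box genes reach -6.43, and all 6 enu-3 genes are members.

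Single genes with known roles were spread through the set and were also picked out after their values were seen. The cell polarity gene par-2, which acts in the early embryo, had 4957 and 5037 CPM in rde-12(hj41) and 4638 and 4795 CPM in N2. The kinesin-13 gene klp-7, whose product takes microtubules apart, had 2352 and 2357 CPM in rde-12(hj41), against 2063 and 2333 CPM in N2. In both, the rde-12(hj41) libraries were the higher ones, for klp-7 by little over N2 replicate 2. In the whole table, both rde-12(hj41) libraries were above both N2 libraries in 35.5% of genes and below them in 27.1%. The homeodomain gene ceh-20, a Pbx relative, had 1622 and 1761 CPM in rde-12(hj41), below 1774 and 1777 CPM in N2. The ETS transcription factor gene lin-1 had 1249 and 1259 CPM in rde-12(hj41) and 1123 and 1179 CPM in N2.

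Genes of cell signalling and shape were present as well. The gene aex-6, which encodes a Rab27 protein of secretion, had 2304 and 2213 CPM in rde-12(hj41) and 1981 and 2017 CPM in N2. The G-protein alpha subunit gene gpa-9 had 2260.2 and 2219 CPM in rde-12(hj41) and 2409 and 2362 CPM in N2, the other way round. The calmodulin-dependent kinase kinase gene ckk-1 had 1218 and 1227 CPM in rde-12(hj41) and 1278 and 1269 CPM in N2. The merlin-like gene nfm-1 had 1166 and 1138 CPM in rde-12(hj41) and 1082 and 1073 CPM in N2. None of these 4 overlapped between genotypes and none was called. Over the whole table, both rde-12(hj41) libraries were below both N2 libraries in 27.1% of genes and above them in 35.5%. Of all genes tested, edgeR called 13.9% lower and 13.8% higher. The cadherin gene cdh-12 had 3056 and 2668 CPM in rde-12(hj41), on either side of its N2 values of 2831 and 2956 CPM, and the unconventional myosin gene hum-2 had 2618 and 2704 CPM in rde-12(hj41), inside 2526 and 2805 CPM in N2.

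Pseudogenes made up 20 of the 150 genes (13.3%), against 67 of the 1787 other genes of the table (3.75%) and 14 of the 74 other genes of the same N2 level (18.9%). Gene types came from RefSeq gene records, or from the WBcel235 annotation for genes without one. The share among the members was nearer to that of genes of their level than to that of the rest of the table. Of all 87 pseudogenes, 34 reached the level of the members. Of those, 20 were members and 14 lay outside the window, 7 below and 7 above. Among the 87, edgeR called 21 lower and 17 higher, where 13.9% and 13.8% of all genes tested were called in these directions. Of the 20 members it called F46F2.4 and klp-10 higher, a kinesin-like name on a gene annotated as a pseudogene, with 1853 and 1988 CPM in rde-12(hj41) and 1588 and 1752 CPM in N2. The pseudogene F49F1.8, ranked 14 by level, had 6915 and 6732 CPM in rde-12(hj41) and 6858 and 6617 CPM in N2, which overlap. Pseudogene members had a median of 1914 CPM in rde-12(hj41) and 1724 CPM in N2.

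A further 11 members (7.33%), led by T01A4.3 and Y102A5D.1, matched no gene of the annotation by name. Of the 1787 other genes 24 did not (1.34%), and of the 74 other genes of the same N2 level 3 did not (4.05%). Y102A5D.1 had 6573 and 6163 CPM in rde-12(hj41) and 5886 and 5751 CPM in N2. What these names stand for in the build used for counting was not analysed here. Of the rest, 117 were annotated as protein coding and 2, Y77E11A.3 and W03G1.8, as non-coding RNA. Named genes were fewer among the members, 64 of 150 (42.7%), than over the whole table (52.1%). Their share was larger than among the 74 other genes of the same N2 level (32.4%).

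By the same sources, 139 members could be placed on a chromosome, 28 on I, 19 on II, 31 on III, 25 on IV, 26 on V and 10 on X. The X share was 7.19%, against 10.4% of the 1763 other placed genes and 28.2% of the 71 placed genes of the same N2 level, 20 genes on X that include the 6 of clone AC8. The members on X were F02C12.3, pks-1, F46F2.4, fbxa-120, F20B6.5, C16H3.3, hil-3, Y73B3A.7, F22H10.1 and Y73B3A.1. F02C12.3 was the most abundant of them, with 8490.1 and 8187 CPM in rde-12(hj41) and 7635 and 7377 CPM in N2. The shares are given as descriptions, with no test.

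**Figure D4:**
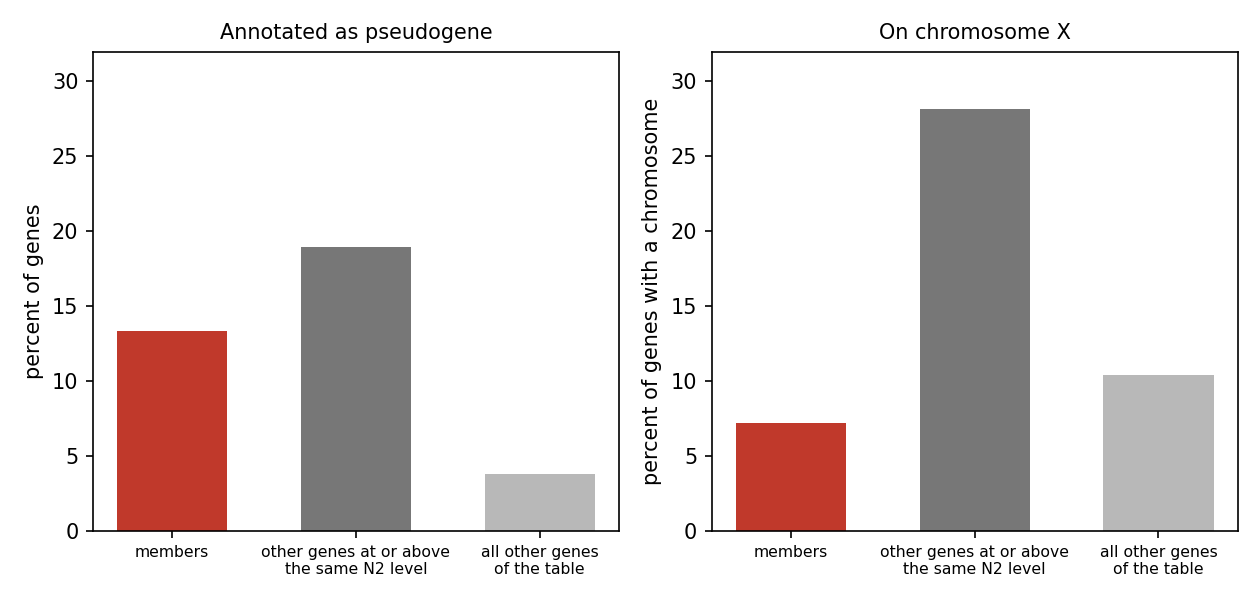
Percent of genes annotated as pseudogenes (left) and, of genes placed on a chromosome, percent on chromosome X (right), for the members, for the other genes at or above the same N2 level, and for all other genes of the table. Members are at 13.3% and 7.19%, genes of the same level at 18.9% and 28.2%, and all other genes at 3.75% and 10.4%.

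In the annotation 41 members had an immediate neighbour in the table, and 8 of them sat next to another member. Of 37 neighbours that were not members, edgeR called 6 lower, 6 higher and 25 neither, and 2 of the higher ones, F07B7.1 and W09B7.1, had the same levels. These shares are near those over all genes tested (13.9% lower and 13.8% higher), so the neighbours are given as single cases. The neighbour with the lowest log2 change lay beside pll-1, a gene related to phospholipase C, with 3004 and 2833 CPM in rde-12(hj41) and 2932 and 2791 CPM in N2. Next to it gsto-3, an omega-class glutathione transferase gene, fell to 14.6 and 13.3 CPM in rde-12(hj41), against 88.1 and 89.5 CPM in N2 (log2 change -2.68 ± 0.12, adjusted p = 3.41e-11).

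K01A11.3 had 1887 and 1817 CPM in rde-12(hj41) and 2012 and 1904 CPM in N2, while its neighbour spe-41, a sperm cation channel gene, fell to 181 and 186 CPM in rde-12(hj41), against 451 and 459 CPM in N2 (log2 change -1.34 ± 0.06, adjusted p = 3.02e-11). ZC123.1 had 1498 and 1383 CPM in rde-12(hj41) and 1278 and 1271 CPM in N2, and cdk-14, a cyclin-dependent kinase gene, fell to 154 and 178 CPM in rde-12(hj41), against 430.4 and 399 CPM in N2 (log2 change -1.35 ± 0.07, adjusted p = 2.01e-10). The exons of ZC123.1 and cdk-14 overlap on opposite strands, and so do those of parn-1 and frpr-15, a gene named for a neuropeptide receptor family. Of this pair, frpr-15 fell to 60.9 and 65.9 CPM in rde-12(hj41), against 103 and 94.7 CPM in N2 (log2 change -0.67 ± 0.094, adjusted p = 4.64e-05). Without strand, counts of overlapping genes could not be assigned with certainty. The other 2 neighbours that fell were Y46H3C.7, beside the pseudogene Y46H3C.6 (log2 change -0.77 ± 0.059, adjusted p = 3.57e-08), and H04D03.4, beside ecps-1 (log2 change -0.25 ± 0.064, adjusted p = 0.00973). Y46H3C.6 itself was on the other side, with 7830.3 and 7295 CPM in rde-12(hj41) and 6389 and 6819 CPM in N2. The difference between a member and its neighbour was not tested, and members were chosen for a small change.

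**Figure D5:**
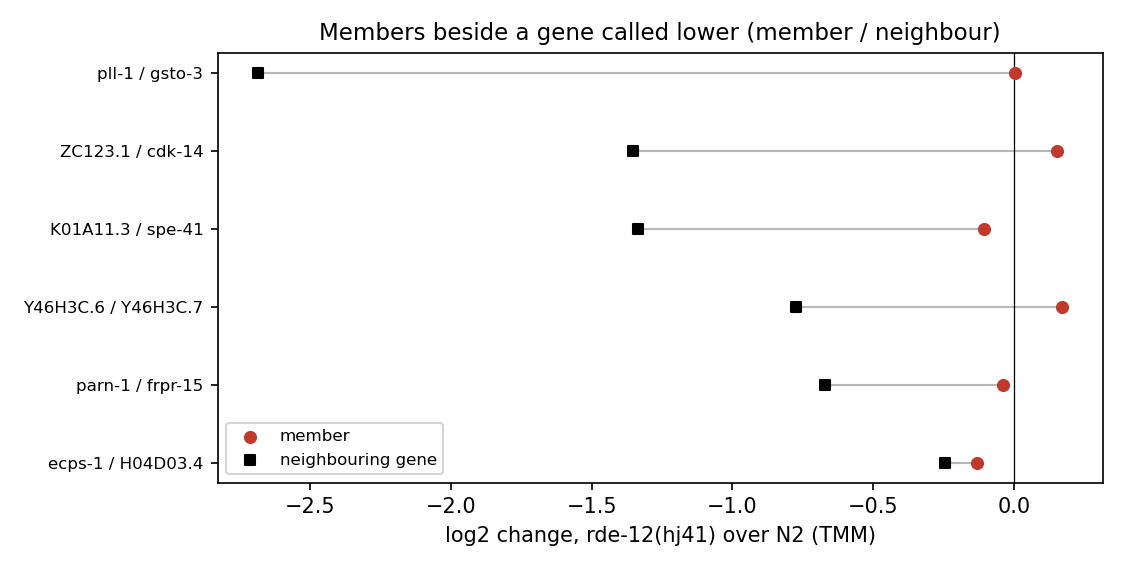
Log2 change, rde-12(hj41) over N2 (TMM scaling), of 6 members (red circles) and of the neighbouring gene of each that edgeR called lower (black squares). The neighbours lie between -2.68 for gsto-3 and -0.25 for H04D03.4, and the members between -0.13 and 0.17.

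Not every member is a separate measurement. F07B7.2 and W09B7.2 had identical counts in all 4 libraries, at 1524 and 1478 CPM in rde-12(hj41) and 1448 and 1448 CPM in N2, and the same reads may have been counted for both. T11F9.10 had 2139 and 2067 CPM in rde-12(hj41) and 2225 and 2155 CPM in N2, nearly the values of srh-1, which its exons overlap on the same strand. In all, exons of 28 of the 139 placed members overlap another annotated gene, 18 on the opposite strand and 12 on the same, against 473 of 1902 placed genes of the table (24.9%). By clone name, 15 clones each carried several members, 32 members in total, with srh-1 and T11F9.10 among them. A shared clone name does not show that counts were shared.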

How the data were processed

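The values used are raw small RNA counts per gene, as deposited by the authors for 4 of the 8 libraries. The submitters' processing notes name TopHat 1.4.1 along with SAMtools and bedtools. RNA of 20 to 26 nt was, per the labels' protocols, cut from gels and treated with TAP, which opens triphosphate ends to ligation. Genome build, strand, handling of multiple matches and gene selection (not given in the sources used here) could shift counts between similar or overlapping genes. The table has 1959 rows, of which 22 repeat a gene and were counted once. Levels are CPM of the table's column sum. All 1937 genes were fitted with the quasi-likelihood test of edgeR 4.0.16 (R 4.3.3), after filterByExpr had removed 6 genes. TMM factors were 0.987 to 1.03, and p-values were adjusted by Benjamini-Hochberg with a threshold of 0.05. SEs are the absolute log2 change over the root of F, and 95% intervals use a t quantile of 2.13. The biological coefficient of variation was 4.06%. The fit was tested on simulated data in which all genes shared a dispersion and the changes set were larger than those of the members. It was not checked there for changes as small as theirs. Alternatives used DESeq2 1.42.0, other scalings, no filter, a replicate block, each library left out, and other forms of the selection. Gene symbols, types and chromosomes are from RefSeq gene records where the name matched (1900 genes), and otherwise from the WBcel235 annotation. Exon lengths, overlaps and neighbours are from WBcel235, matched by gene name for 1902 genes. No coordinates are given because the build behind the counts is unknown.

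Members and gene lists were chosen with earlier results of these data known, so no count over them was tested. Genes named by rule are the 20 members with the highest N2 level, 3 on either side of each limit of the choice, every member called, every member on a gene list, the 5 densest and 5 sparsest per exon length, and the 5 with the widest pair of replicates. Other genes, such as par-2 and sosi-1, were picked out after their values were seen. Similar proteins were not compared, and members with identical counts are named instead. Lists cover small RNA factors, germ granule and germline genes, chromatin genes, gene families by symbol, and muscle, intestine and neuron genes. Replicates of a genotype were no repeat deposits (chi-square of their counts over its degrees of freedom 4.13 in rde-12(hj41) and 3.50 in N2, against 130 between genotypes). Intervals cover the spread between 2 libraries, which the labels call biological samples.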

Additional observations from a re-analysis of the deposited data

How the results depend on the processing

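Over all genes, 268 were called lower and 267 higher, 157 lower with DESeq2, and with 1 library left out 175 to 304 lower and 165 to 308 higher, the lowest counts coming without rde-12(hj41) replicate 1. Among the 150 genes, 1 called lower became 3 with library totals, 0 with upper-quartile factors and 0 with median-of-ratios factors in edgeR (1 and 3 at an unadjusted p under 0.05, 1 called by DESeq2), and 0 to 4 with 1 library left out. The 9 called higher became 16 with DESeq2, 43 with library totals, 37 with upper-quartile factors and 0 to 31 with 1 library left out. Of the 10 called, 0 held in every edgeR alternative, while DESeq2 called all 10. The median log2 change of 0.036 became 0.087 with upper-quartile factors and 0.0096 to 0.075 with 1 library left out. Leaving out 1 library moves the fit to a lone sample assumed to vary like the others. The cause of these shifts was not tested.

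Deviations of same-numbered libraries from their group means had a correlation of 0.0272 over the 1931 genes tested. All genes weighed the same in it, those with few counts included, so whether the replicate numbers pair the libraries cannot be told from it. With a replicate block 230 genes were called lower and 243 higher, and of the 150 genes 2 lower and 13 higher.

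Under other forms of the choice, 138 to 144 of the 150 genes were kept with 1 library left out (124 in every case), 140 with TMM factors, 133 with upper-quartile factors, 149 with geometric means, 149 when ranked by both genotypes, 143 with repeated rows and 117 with a window of 0.9 to 1.1. Set against the counts outside the 150 genes, their counts came to 87.9% in rde-12(hj41) and 81.6% in N2. Of 580 values of named genes under alternatives, 418 moved by less than the spread between replicates, 162 by more, and no called one changed sign.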

Other observations

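Several gene lists had no gene among the 150, although their genes were in the table. Over all genes tested, edgeR called 13.9% lower and 13.8% higher, and DESeq2 called 157 lower and 207 higher over all genes. The counts below stand beside these values with no test of the lists. Of 27 genes with sperm names, edgeR called 7 lower and 0 higher in rde-12(hj41), with 11 lower and 0 higher at an unadjusted p under 0.05, and DESeq2 called 3 lower and 0 higher. Collagen and cuticle genes numbered 7, with 1 called lower and 4 higher by both edgeR and DESeq2, and 6 C-type lectin genes had 1 called lower by both. Kinase and phosphatase genes numbered 10 and included 2 called lower, and 7 transporter genes included 1 called higher, with the same counts in DESeq2. Of 2 ribosomal protein genes edgeR called 1 higher and DESeq2 0, and of 2 UDP-glucuronosyltransferase genes edgeR called 1 lower and 1 higher and DESeq2 only 1 higher. Zinc-finger genes numbered 6, with 1 called lower and 1 higher by edgeR, 0 by DESeq2, and zfp-1 among the 150, and ubiquitin-pathway genes numbered 9, with 2 called lower and 1 higher by edgeR, 0 lower and 1 higher by DESeq2, and ubc-19 among the 150. For 4 chemoreceptor genes, 4 RNA helicase genes and 3 tRNA synthetase genes, edgeR and DESeq2 each called 0, and at an unadjusted p under 0.05 edgeR had 0 chemoreceptor genes, 2 helicase genes higher and 1 tRNA synthetase gene lower. The chemoreceptor gene srh-1 was among the 150, and 2 helicase genes and 1 sperm gene had been left out by name. Muscle, intestine, neuron and cytochrome P450 lists had 0 genes in the table used here.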
